A study of Mus musculus with 41 samples.

Results

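*Cxcl1* and *Cxcl2* are 2 of the 54 mouse target genes of a Fluidigm qPCR panel that was run on skin from 41 female NSG mice, and they were taken by name from the deposited Ct table. A Ct is the PCR cycle at which the signal of an assay crosses its threshold, so a lower Ct means more cDNA. The mice carried an electrospun nanofiber mesh of a degradable lactic acid and caprolactone copolymer (P), the same mesh with human endometrial mesenchymal stem/stromal cells (P+eMSC), or belonged to the sham controls, whose procedure is not described further, and explants were taken after 1 or 6 weeks. There were 7 sham, 6 P and 7 P+eMSC mice at 1 week, and 6 sham, 8 P and 7 P+eMSC mice at 6 weeks. All mice were of the same immunodeficient strain, whose age is not given in the sources used here. The P nanomesh was sutured to the abdominal fascia under the skin, and the eMSC, sorted for SUSD2 and carrying an mCherry label, were placed on top of it.

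Both genes encode secreted CXC chemokines that carry the glutamate-leucine-arginine motif and bind the receptor CXCR2 on neutrophils. They draw neutrophils out of the blood into injured or infected tissue, and macrophages, mast cells, fibroblasts, endothelium and keratinocytes can all make them. Their transcription is switched on through NF-κB by cytokines such as IL-1 and TNF and by microbial products, and their mRNAs are short-lived. NSG mice lack T, B and natural killer cells but keep neutrophils and macrophages, so the responding cells are still present in this host. *Cxcl1* is also called KC, and *Cxcl2* is also called MIP-2.

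The genes are neighbours on the plus strand of chromosome 5, *Cxcl1* at chr5:90891245-90893121 and *Cxcl2* at chr5:90903899-90905938 of GRCm38.p6, with 10777 bases between them. The 120 bases before each annotated start are shown, from the RefSeq sequence of that build, because both hold the same match to the κB motif, to which NF-κB binds. The capitals mark GGGAATTTCC, which lies in the longest run of bases shared by these stretches and was searched on both strands, and each sequence is written 5′ to 3′ on the plus strand.
Cxcl1 promoter, chr5:90891125-90891244: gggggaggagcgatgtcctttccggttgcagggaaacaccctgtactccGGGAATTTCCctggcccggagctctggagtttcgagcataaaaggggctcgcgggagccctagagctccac
Cxcl2 promoter, chr5:90903779-90903898: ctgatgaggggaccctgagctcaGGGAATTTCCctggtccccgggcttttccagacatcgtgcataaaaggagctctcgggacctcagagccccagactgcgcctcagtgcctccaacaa
The motif began 71 bases before the start of *Cxcl1* and 97 bases before that of *Cxcl2*. The whole shared run is GGGAATTTCCCTGG. Of 32851 RefSeq promoters, 0.0852% held these 10 letters on either strand in the 250 bases before the start. Of the 54 target genes, 32 had a promoter in that table, and these 10 letters were in 2 of them, *Cxcl1* and *Cxcl2*. The letters were taken from these 2 promoters, so both had to match. Other forms of the κB motif were not searched, so κB sites in the other genes were not tested. A match of letters does not show that a factor bound there in these mice.

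Each level below is the Ct of 18S ribosomal RNA minus the Ct of the gene in the same mouse. It is on the log2 scale, so 1 unit is a 2-fold difference, and a value closer to 0 is a higher level. *Cxcl1* was detected in 40 mice and *Cxcl2* in 39. Mouse 52 (P, 6 weeks) gave no Ct for either, and mouse 78 (P+eMSC, 1 week) gave none for *Cxcl2*. These mice also had the lowest medians over the 23 genes detected throughout, at -16.94 and -11.10 relative to 18S against -7.93 over all mice, and mouse 52 lacked a Ct for 31 of the 54 genes. The Ct of 18S lay between 6.20 and 7.79. Collagen I was readily detected (*Col1a1* at a group median between -3.44 and -1.96), as was the epithelial cadherin *Cdh1* in all mice but mouse 52. Genes that define neutrophils were not analysed here, and fewer expressing cells cannot be told apart from less RNA per cell in bulk tissue. The paper states that tissue close to the meshes was used and that extracting the cells inside the mesh was not feasible. Nothing in the sources used here says whether mice of a group shared a litter or a day of surgery. The paper states that the eMSC came from several women and that each biopsy gave a single cell line. Which line a mouse received is not given, so donor differences in P+eMSC could not be separated from differences between mice. The p-values set each difference or correlation against the variation between these mice.

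In the sham controls at 1 week, *Cxcl1* ran from -17.74 in mouse 125 to -10.16 in mouse 2269, with a median of -16.44 (SD 2.73, n = 7). *Cxcl2* in the same mice ran from -21.06 to -9.81, again in mice 125 and 2269, with a median of -19.08 (SD 4.37, n = 7). Mice 2269 and 400 stood above the other 5 sham controls of this week in both genes. Mouse 400 was at -12.67 in *Cxcl1* and -12.52 in *Cxcl2*, while the other 5 reached at most -15.25 and -16.77. Both mice were also higher than the highest of these 5 in *Il6* (-10.00 and -12.82 against -16.26), *Il1b* (-8.83 and -14.58 against -15.19) and the monocyte attractant *Ccl2* (-8.02 and -12.52 against -12.69). In *Tnfa*, mouse 2269 was above them (-10.58 against -12.90) and mouse 400 was not (-14.87). Mouse 2269 was also above them in the median over the 23 genes detected throughout (-6.31 against -7.05) and in *Col1a1* (0.099 against -2.33). Mouse 400 was above them in neither (-7.60 and -2.77). High levels of both chemokines at 1 week were thus also found in mice labelled sham.

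At 6 weeks, *Cxcl1* in the sham controls lay between -16.25 and -13.84 with a median of -15.63 (SD 1.03, n = 6), a range of 2.40 against 7.58 at 1 week. *Cxcl2* lay between -19.65 and -13.01 with a median of -18.21 (SD 2.38, n = 6). Mouse 408 was the highest in both genes, and in *Cxcl2* it was 4.61 above the next mouse, at -17.63. Mice 2269 and 400 of the earlier week lay above all sham controls of the later week in both genes, while the lowest sham controls of the earlier week lay below all of them.

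In the P mice at 1 week, *Cxcl1* lay between -15.72 and -11.80 with a median of -14.35 (SD 1.61, n = 6), the highest median of the 6 groups. *Cxcl2* lay between -19.28 in mouse 2355 and -8.03 in mouse 2308, with a median of -13.25 (SD 3.74, n = 6), also the highest. In *Cxcl2*, 5 of these 6 mice were at -15.21 or above and mouse 2355 stood alone below them. At 6 weeks, *Cxcl1* in P lay between -18.08 and -12.31 with a median of -15.90 (SD 2.05, n = 7). *Cxcl2* lay between -23.39 and -11.84 with a median of -15.91 (SD 4.11, n = 7). The value of -23.39, in mouse 121, was the lowest *Cxcl2* level of all mice, although *Cxcl1* in that mouse was at -15.78, close to the group median.

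In the P+eMSC mice at 1 week, *Cxcl1* ran from -20.46 in mouse 78 to -12.60 in mouse 10 around a median of -16.08 (SD 2.50, n = 7). *Cxcl2* ran from -18.81 to -8.97, the highest again in mouse 10, around a median of -16.51 (SD 3.58, n = 6). At 6 weeks, *Cxcl1* lay between -17.47 and -11.25 with a median of -15.42 (SD 2.07, n = 7). *Cxcl2* lay between -20.09 and -10.51 with a median of -17.57 (SD 3.46, n = 7). Mouse 60 was the lowest and mouse 2317 the highest in both genes.

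**Figure D1:**
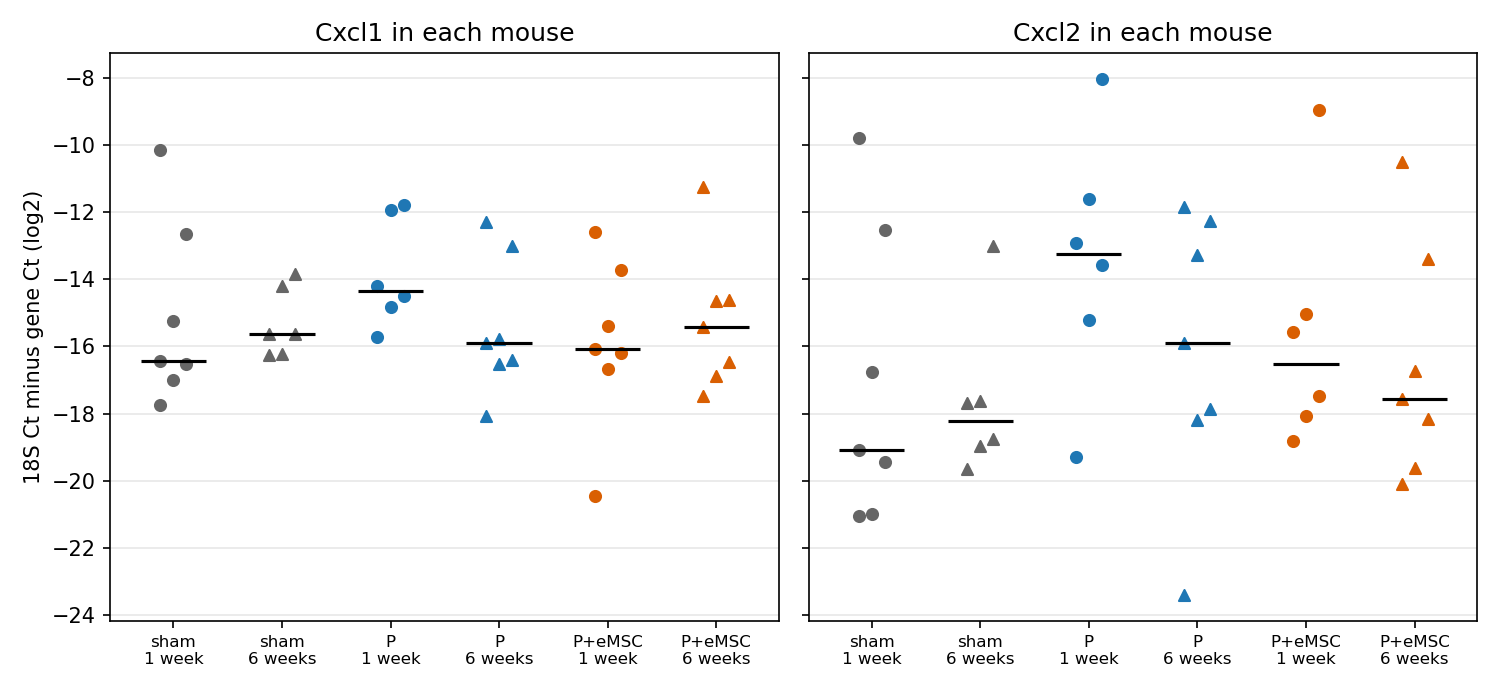
Level of *Cxcl1* (left) and *Cxcl2* (right) in each mouse, as 18S Ct minus gene Ct (log2, vertical axis), by treatment and week. Each point is a mouse (circles 1 week, triangles 6 weeks), horizontal lines are group medians, and undetected values are not drawn. All groups overlap, and *Cxcl2* covers a wider range than *Cxcl1* in each of them.

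Ordered by median, *Cxcl1* ran from P at 1 week through P+eMSC at 6 weeks, sham at 6 weeks, P at 6 weeks and P+eMSC at 1 week to sham at 1 week, with 2.08 between the first and the last. For *Cxcl2* the order was P at 1 week, P at 6 weeks, P+eMSC at 1 week, P+eMSC at 6 weeks, sham at 6 weeks and sham at 1 week, with 5.84 between the first and the last. No neighbours in either order were further apart than the smaller of their SDs. The same mice tended to be highest in both genes, with 4 mice (2269, 2317, 2308 and 2396) among the highest 5 of each. These came from the sham, P+eMSC and P groups.

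The main contrast between the genes was their spread within a group. The pooled within-group SD of *Cxcl2* was 3.69 (n = 39), the largest of the 54 target genes, and 1 SD corresponded to a 12.9-fold difference. That of *Cxcl1* was 2.11 (n = 40), the 22nd, close to the median of 2.01 over the 54 genes. In the 39 mice with both genes the SD of *Cxcl2* was 1.88 times that of *Cxcl1* (3.69 against 1.96). When the deviations of the genes from their group medians were swapped within mice, a two-sided permutation test gave p = 3e-05. The SD of *Cxcl2* was the larger in 6 of 6 groups, by 1.60 times in sham at 1 week to 2.33 times in P at 1 week, though none of these single groups passed the exact permutation test (adjusted p from 0.188 to 0.375). With the panel median of each mouse (the 23 genes detected in all mice) in place of 18S, *Cxcl2* was still first of the 54 genes at 3.32 and *Cxcl1* 15th at 1.52.

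**Figure D2:**
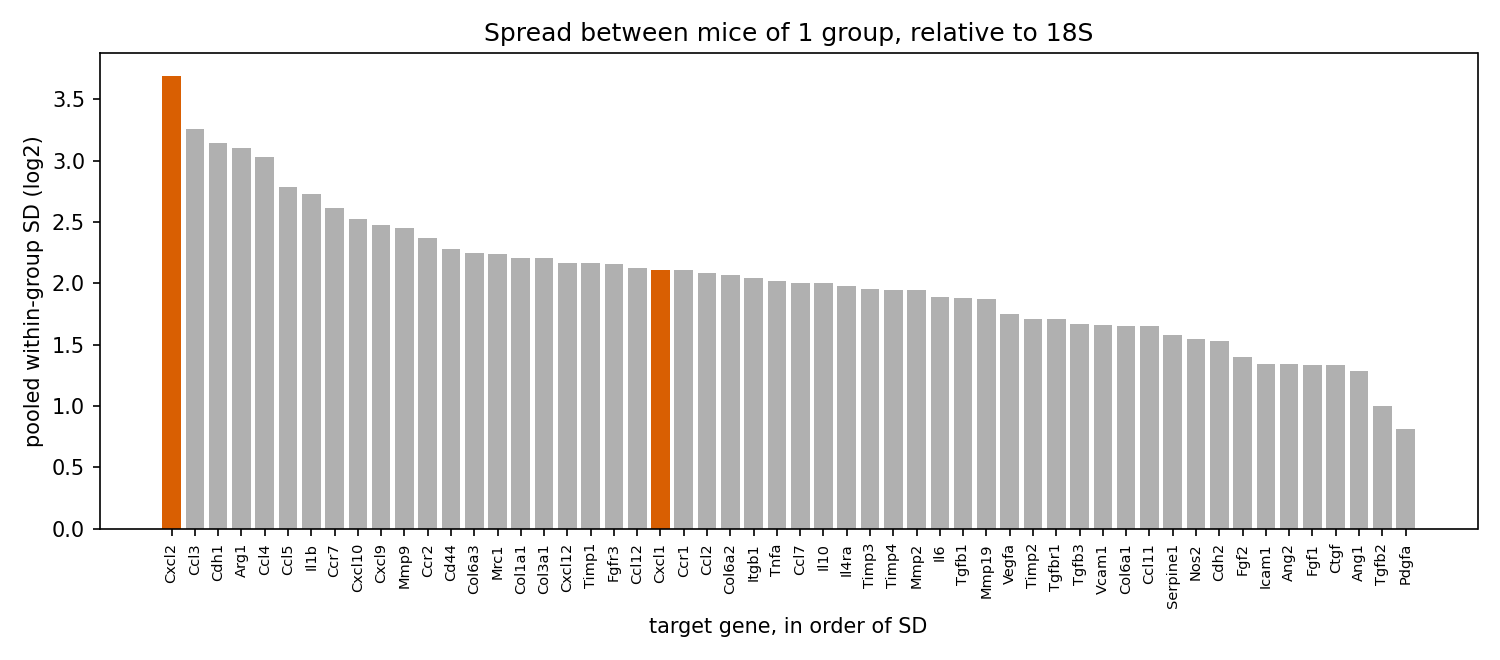
Pooled within-group SD (log2, vertical axis) of each of the 54 target genes relative to 18S, in descending order along the horizontal axis. *Cxcl2* (coloured, 3.69) is first and *Cxcl1* (coloured, 2.11) is 22nd.

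Abundance was set beside this spread as a description. By median Ct, *Cxcl2* ranked 2nd of the 54 genes from the highest (24.06) and *Cxcl1* 5th (22.35), where the median over the genes was 17.28, although a Ct also depends on the assay. The macrophage chemokines *Ccl3* and *Ccl4*, which ranked 1st and 3rd in Ct (25.44 and 23.08), were 2nd and 5th in SD (3.26 and 3.03). *Ccr7* and *Il1b*, 7th and 8th in Ct, were 8th and 7th in SD. In contrast, *Il6*, *Il10*, *Nos2* and *Cdh2*, at 4th, 6th, 9th and 10th in Ct, were only 34th, 29th, 45th and 46th in SD. The epithelial cadherin *Cdh1* was 3rd in SD (3.14) with a median Ct of 16.68, and *Arg1*, the arginase of alternatively activated macrophages, was 4th (3.10) with a median Ct of 18.82. The part of low abundance in the spread of *Cxcl2* was not tested.

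The spread of either gene was compared between weeks through the mean absolute deviation from the group median. In sham it was 1.88 at 1 week and 0.74 at 6 weeks for *Cxcl1* (exact permutation test, two-sided p = 0.341), and 3.20 and 1.5 for *Cxcl2* (exact permutation p = 0.30). In P it was 1.18 and 1.42 for *Cxcl1* and 2.58 and 3.15 for *Cxcl2*. In P+eMSC it was 1.66 and 1.47 for *Cxcl1* and 2.46 at both weeks for *Cxcl2*. None of the 6 comparisons passed the test (adjusted p from 0.992 to 0.999). Relative to the panel median, the sham mice differed in *Cxcl1*, at 1.57 and 0.40 (exact permutation p = 0.0449, adjusted p = 0.269 over 6 comparisons).

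The levels of the genes moved together from mouse to mouse within groups. Over 39 mice, deviations from the group medians correlated at Pearson's r = 0.787 (permutation p = 1e-05, the smallest that 100000 permutations can give) and Spearman's rho = 0.721 (p = 2e-05). Without mice 2269 and 2317, the farthest from the median in *Cxcl1*, r was 0.71 (permutation p = 1e-05) and rho 0.678 (permutation p = 8e-05). Both genes came from the same cDNA, were preamplified together and share the 18S value. Relative to the panel median r was 0.629 and rho 0.699, each with a permutation p of 2e-05, and without any reference the Ct values gave r = 0.787. For each unit of *Cxcl1* deviation, *Cxcl2* deviated by 1.49 on the log2 scale. By group, Pearson's r was 0.93 in sham at 1 week, 0.82 in sham at 6 weeks, 0.88 in P+eMSC at 1 week and 0.95 in P+eMSC at 6 weeks, each with an exact permutation p adjusted over 6 groups between 0.00238 and 0.0313. In P it was 0.78 at 1 week and 0.47 at 6 weeks (adjusted exact permutation p = 0.0567 and 0.286). Relative to the panel median, r in P was 0.38 and 0.42 and at least 0.91 in the other 4 groups. By rank the order of the groups differed, with Spearman's rho at 0.96 in P+eMSC at 6 weeks, 0.94 in P at 1 week, 0.29 in P at 6 weeks and 0.71 in each of the other 3 groups, and an adjusted exact permutation p of 0.0167, 0.05, 0.556 and 0.163. Differences in correlation between groups were not tested.

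**Figure D3:**
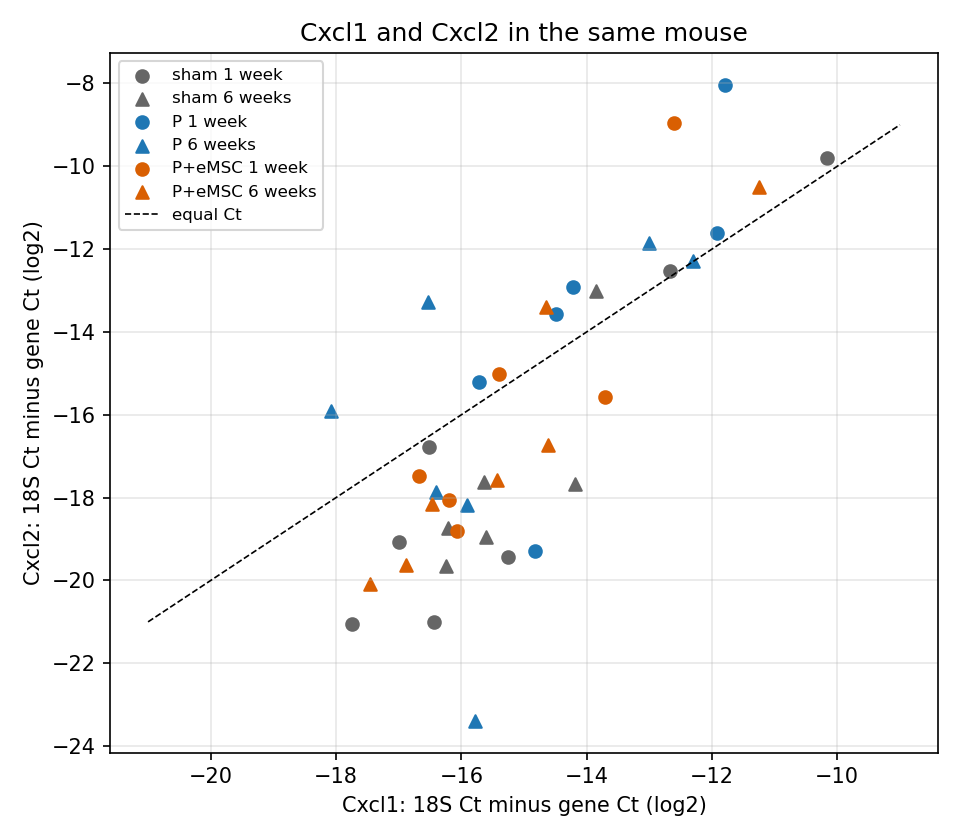
*Cxcl2* (vertical axis) against *Cxcl1* (horizontal axis) in the 39 mice with both genes, each as 18S Ct minus gene Ct (log2), with colour for treatment and symbol for week. On the dashed line the Ct values are equal. Points rise together, and the *Cxcl2* axis covers more units, with mouse 121 (P, 6 weeks) lowest at -23.39.

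For the time course, an exact Mann-Whitney U test (two-sided) was run on each gene, with the Hodges-Lehmann shift (the median of all differences between a mouse of 1 group and a mouse of the other) as the size of the difference. A gene was called at the threshold of the study, p of 0.0513 or less. Neither gene was called between weeks in any treatment. In sham, the shift from 1 to 6 weeks was 0.76 for *Cxcl1* (95% interval -3.58 to 2.33, exact p = 0.534) and 0.41 for *Cxcl2* (-6.43 to 3.38, exact p = 0.836), where the median over 54 genes was 0.51 and 3.7% of them were called. Both shifts had the opposite sign relative to the panel median, -0.50 and -0.20.

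In P, both genes were lower at 6 weeks than at 1 week in their medians. The shift was -1.57 for *Cxcl1* (95% interval -4.11 to 1.49, exact p = 0.0734), a fold of 2.97 downward, and 5 of the 7 mice at 6 weeks lay below the lowest mouse at 1 week. For *Cxcl2* the shift was -2.81 (-8.18 to 1.94, exact p = 0.366), the lowest of the 54 genes, whose median was -0.50. That shift lay between -3.81 and -0.70 when 1 mouse was left out, the latter without mouse 2308 of P at 1 week, and was -1.90 relative to the panel median. Among the 54 genes 0.0% were called in this comparison. The result for *Cxcl1* lay close to the threshold and turned on single mice. With mouse 52 set below the lowest detected value, it passed (shift -1.81, exact p = 0.0426), and it passed without mouse 2356 or without mouse 2307, with a shift of -1.81 and an exact p of 0.026 in each case. Mouse 2356 was labelled 6 weeks, but the deposited fold changes of both its chemokines had been set against the 1 week sham controls. Counted at 1 week, it gave a *Cxcl1* shift of -2.11 (exact p = 0.014), and none of these p-values is adjusted over the 54 genes.

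In P+eMSC, the shift from 1 to 6 weeks was 0.22 for *Cxcl1* (95% interval -2.06 to 4.0, exact p = 1) and -1.23 for *Cxcl2* (-4.59 to 4.51, exact p = 0.534). That of *Cxcl2* was again the lowest of the 54 genes, whose median was 0.88 with 0.0% called. It lay between -1.72 and -0.10 when 1 mouse was left out, the latter without mouse 10, and was also -0.10 with mouse 78 set below the lowest detected value. Mouse 78 lacked a Ct for 6 of the 54 genes, *Cxcl2* among them, and stayed in the others. The ranked shifts therefore did not rest on the same mice, and no rank was computed with mouse 78 set in. The sign for *Cxcl1* depended on the reference, with a shift of -0.52 relative to the panel median. Whether the time courses differed between treatments was tested as an interaction of week and treatment in limma. For *Cxcl1*, the change in P+eMSC exceeded that in P by 2.23 (SE 1.59, limma adjusted p = 0.485), and the change in P minus that in sham was -1.42 (SE 1.62, adjusted p = 0.736). For *Cxcl2* these differences were 1.73 (SE 2.68, adjusted p = 0.641) and -2.15 (SE 2.68, adjusted p = 0.736). The change in P+eMSC minus that in sham was 0.81 for *Cxcl1* (SE 1.59) and -0.42 for *Cxcl2* (SE 2.68), with a limma adjusted p of 0.999 for both. In each of the 3 interactions 0.0% of the 54 genes were called, also at an unadjusted limma p below 0.05.

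**Figure D4:**
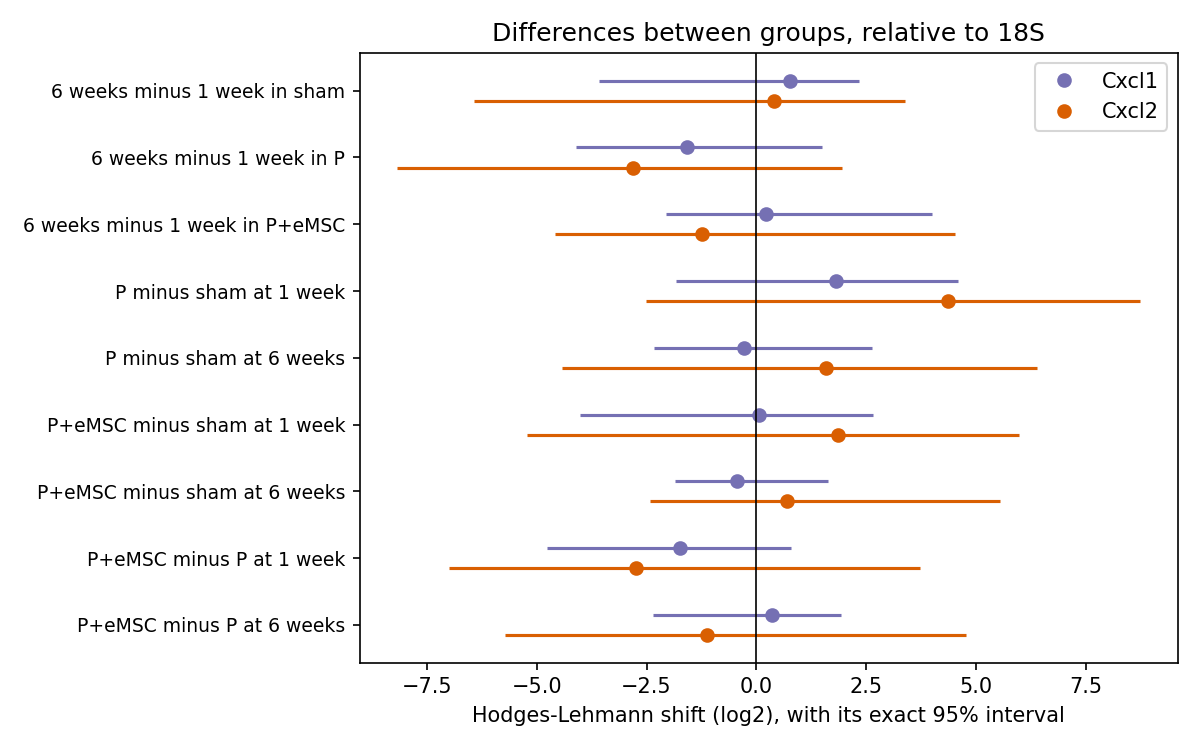
Hodges-Lehmann shifts (points, log2, horizontal axis) with exact 95% intervals (lines) of *Cxcl1* and *Cxcl2* in 9 comparisons between groups, relative to 18S. Every interval includes 0, and in each comparison that of *Cxcl2* is the wider.

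At 1 week, *Cxcl2* was 4.36 higher in P than in sham by its shift (95% interval -2.51 to 8.74, exact p = 0.181), a fold of 20.5, and *Cxcl1* was 1.82 higher (-1.83 to 4.59, exact p = 0.181), a fold of 3.53. The *Cxcl2* shift was the highest of the 54 genes, whose median was -0.10 and of which 5.56% were called, all lower. The groups nevertheless overlapped in both genes, and neither gene was called (adjusted p = 0.791 for both). In *Cxcl1*, sham mice 2269, 400 and 126 (-15.25) lay above the lowest P mouse, 133, at -15.72. In *Cxcl2*, sham mice 2269, 400, 2354 (-16.77) and 119 (-19.08) lay above the lowest P mouse, 2355, at -19.28. Without mouse 2269 the *Cxcl1* shift was 2.09 and passed the threshold (exact p = 0.0411), and that of *Cxcl2* did not pass without any single mouse. The authors set their fold changes against the mean of the sham controls of the week. At 1 week that mean lay 1.33 above the sham median for *Cxcl1* and 1.99 above it for *Cxcl2*, and at 6 weeks 0.34 and 0.60 above it. In P+eMSC against sham at 1 week, the shift was 0.068 for *Cxcl1* (-4.02 to 2.65, exact p = 1; -0.33 relative to the panel median) and 1.86 for *Cxcl2* (-5.22 to 5.97, exact p = 0.295), with 0.0% of the 54 genes called.

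Between P+eMSC and P at 1 week, the comparison that asks what the eMSC add to the mesh, *Cxcl1* had a shift of -1.74 (95% interval -4.76 to 0.79, exact p = 0.101) and *Cxcl2* of -2.75 (-6.99 to 3.72, exact p = 0.310). The latter was the lowest of the 54 genes, whose median was -0.073 with 0.0% called. Relative to the panel median the *Cxcl1* shift was -2.08 and was called (exact p = 0.014, adjusted p = 0.421), as were 9.26% of the 54 genes. It also passed relative to 18S without mouse 10 (-1.89) or without mouse 2358 (-1.86), with an exact p of 0.0411 in each case. In *Cxcl1*, 4 of the 7 P+eMSC mice lay below the lowest P mouse. In *Cxcl2*, all 6 detected P+eMSC mice lay within the range of the P mice, since mouse 2355 of P was at -19.28. Mouse 78 of P+eMSC, which gave no Ct, is not counted there. With mouse 78 set below the lowest detected value, the *Cxcl2* shift was -3.75 (exact p = 0.181). Relative to the panel median it was -3.40 (exact p = 0.132).

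At 6 weeks the shifts of *Cxcl1* against sham were -0.27 in P (95% interval -2.34 to 2.64, exact p = 0.534; 0.68 relative to the panel median) and -0.44 in P+eMSC (-1.85 to 1.64, exact p = 0.731). For *Cxcl2* they were 1.59 in P (-4.43 to 6.38, exact p = 0.366) and 0.70 in P+eMSC (-2.41 to 5.55, exact p = 0.628). Relative to the panel median these were 3.49 and 0.22, and they lay between 0.99 and 2.83 in P and between 0.043 and 1.06 in P+eMSC when 1 mouse was left out. In P against sham, 25.9% of the 54 genes were called, all lower, and the median over the genes was -0.83, whereas in P+eMSC against sham 0.0% were called. Between P+eMSC and P at 6 weeks, *Cxcl1* had a shift of 0.35 (-2.35 to 1.92, exact p = 0.902; -1.09 relative to the panel median) and *Cxcl2* of -1.13 (-5.73 to 4.77, exact p = 0.71). Here 18.5% of the 54 genes were called, all higher, with a median shift of 1.15, and that of *Cxcl2* was the lowest of the 54. Mouse 52 lacked a Ct for 31 of the 54 genes, *Cxcl2* among them, and stayed in the others. The ranked shifts therefore did not rest on the same mice. The *Cxcl2* shift was -2.36 relative to the panel median, where the lowest of the 54 was -2.44, and -0.054 with mouse 52 set below the lowest detected value. It lay between -1.71 and -0.21 when 1 mouse was left out, the latter without mouse 60 or 2399 of P+eMSC or mouse 2356 or 2307 of P. Relative to 18S, 0 of the 18 comparisons of the members passed the threshold, against 5.97% of the 486 pairs of gene and comparison. With this reference, 0 of 18 had an unadjusted p below 0.05 by this test, by limma or by an exact permutation of the mean. The smallest adjusted p by this test was 0.534. Relative to the panel median, the unadjusted limma p was 0.0128 for *Cxcl1* in P+eMSC against P at 1 week (adjusted p = 0.510). For *Cxcl2* in P against sham at 1 week the limma p was 0.0308 (adjusted p = 0.324). The 9 comparisons share groups and are not independent.

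The Ct of *Cxcl2* minus that of *Cxcl1* in a mouse does not depend on 18S. It compares the genes between mice, but as a difference of assays its size is not a ratio of transcripts. In sham its median was 2.09 at 1 week (from -0.35 to 4.56, SD 2.09, n = 7) and 2.94 at 6 weeks (from -0.83 to 3.49, SD 1.65, n = 6). In P it was -0.72 (from -3.76 to 4.45, SD 2.68, n = 6) and -0.032 (from -3.26 to 7.61, SD 3.62, n = 7). In P+eMSC it was 1.32 (from -3.63 to 2.73, SD 2.31, n = 6) and 2.13 (from -1.25 to 2.74, SD 1.63, n = 7). The difference was above 0 in 5 of 7 and 5 of 6 sham mice, in 1 of 6 and 3 of 7 P mice, and in 4 of 6 and 5 of 7 P+eMSC mice at 1 and 6 weeks.

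Between weeks, this difference had shifts of 0.058 in sham, 0.70 in P and 0.53 in P+eMSC (exact Mann-Whitney p = 0.945, 0.628 and 0.534), so no change in the balance of the genes with time was detectable. The comparisons between treatments were added after the values had been seen. In P against sham at 1 week the shift was -2.81 (95% interval -5.48 to 0.044), with an exact p of 0.0513, at the threshold, and an adjusted p of 0.308 over 6 comparisons, and 5 of the 6 P mice were below 0. An exact permutation of the mean gave p = 0.101. Without mouse 2355 the shift was -3.62 (exact p = 0.00505), without mouse 2308 it was -1.17 (exact p = 0.106), and it lost the call in 11 of the 13 analyses that left out 1 mouse. In the other 5 comparisons between treatments the exact p lay between 0.138 and 0.383. P against sham at 6 weeks, with a shift of -2.03, passed without mouse 121 (-2.85, exact p = 0.026).

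**Figure D5:**
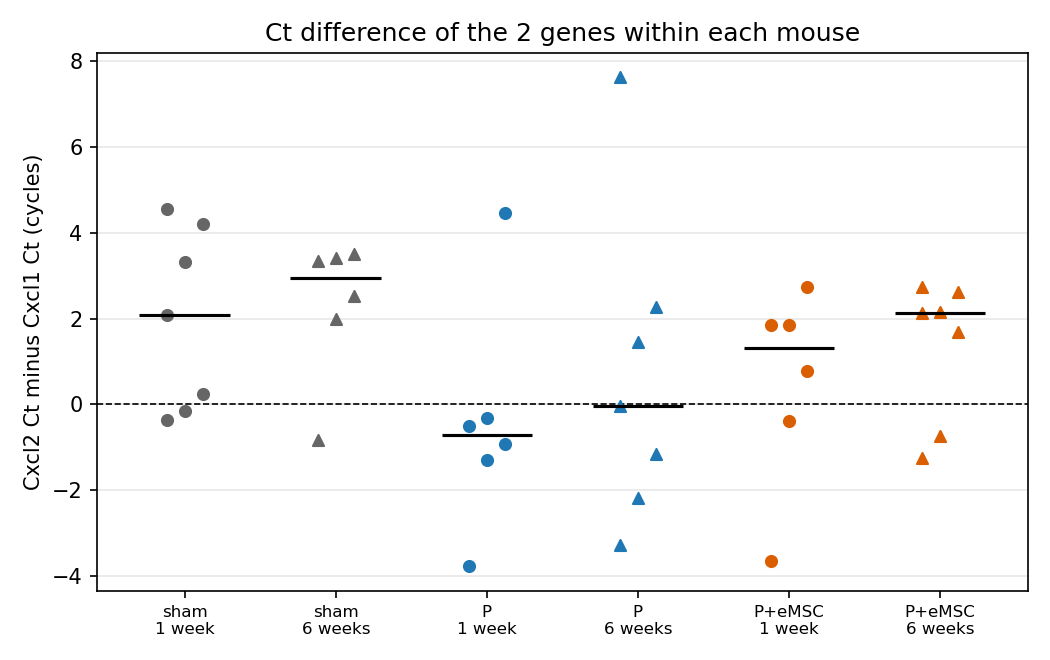
Cxcl2 Ct minus Cxcl1 Ct in each mouse (cycles, vertical axis) by treatment and week, with circles for 1 week and triangles for 6 weeks. Horizontal lines are medians, and 0 (dashed) means equal Ct. Of the P mice at 1 week, 5 of 6 lie below 0.

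Across all mice, the target genes whose levels ranked most like *Cxcl1* were *Ccl2* (Spearman's rho = 0.82, n = 40), the related monocyte chemokine *Ccl12* (0.82, n = 40) and the chemokine receptor *Ccr1* (0.79, n = 40), against a median of 0.63 over the other 53 genes. Those most like *Cxcl2* were *Ccl3* (0.86, n = 39), *Ccl2* (0.86, n = 39) and *Ccl4* (0.83, n = 37), against a median of 0.40. *Cxcl2* itself ranked 12th for *Cxcl1* at 0.72. Relative to the panel median, *Ccl2* stayed among the first 3 genes of both, with *Il10* and *Cxcl2* beside it for *Cxcl1*, and *Ccl3* and *Il1b* for *Cxcl2*. These values share the reference and the cDNA of each mouse and are given as a description.

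Over the whole panel, 5.97% of the 486 pairs of a gene and a comparison were called. Of the inflammatory cytokines *Il1b*, *Tnfa* and *Il6*, 0 of 3 were called in any of the 9 comparisons. At 1 week their shifts between P and sham lay between 1.61 and 2.26 (median 1.62), and those between P+eMSC and P between -1.64 and -0.81 (median -1.36). The 6 inflammatory CC chemokines on the panel (*Ccl2*, *Ccl3*, *Ccl4*, *Ccl5*, *Ccl7* and *Ccl12*), which attract monocytes and other leukocytes, had shifts between 1.05 and 2.87 in the former comparison and between -2.42 and -0.84 in the latter, with 0 of 6 called. From 1 to 6 weeks in P, the shifts of the cytokines lay between -1.10 and -1.04 and those of the CC chemokines between -1.85 and -1.02. *Cxcl1* and *Cxcl2* had the same sign as these genes in all 3 comparisons, and the comparisons share the P mice of 1 week. Of the other CXC chemokines (*Cxcl9*, *Cxcl10* and *Cxcl12*), 1 of 3 was called, *Cxcl9*, in P+eMSC against P at 6 weeks (shift 3.44), the comparison in which 18.5% of the 54 genes were called, all higher, with a median shift of 1.15.

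Of the cell type markers on the panel, none was called in any of the 9 comparisons, whether of myeloid cells (*Mmp9* and *Ccr1*), macrophages (*Mrc1*, *Arg1*, *Nos2*, *Ccr2* and *Il4ra*), epithelium (*Cdh1*), fibroblasts (*Col1a1*, *Col3a1*, *Col6a1* and *Col6a2*) or endothelium (*Icam1*, *Vcam1* and *Ang2*). Of all 54 genes, 25.9% were called in P against sham at 6 weeks, 18.5% in P+eMSC against P at 6 weeks and 0.0% to 5.56% in the other 7 comparisons. *Ccr1*, a receptor carried by neutrophils and monocytes, had a median of -14.61 in sham and -11.65 in P at 1 week and a shift of 1.27. It was at -8.87 in sham mouse 2269 and -11.49 in sham mouse 400. The other 5 sham mice of that week had at most -13.46. *Mmp9*, the gelatinase that neutrophils store in their granules, had a median of -12.18 in sham and -12.62 in P at 1 week and a shift of -0.32 (0.23 relative to the panel median). It was at -10.21 in sham mouse 2269 and -12.42 in sham mouse 400, and the other 5 sham mice reached -11.42. From 1 to 6 weeks, the *Mmp9* shift relative to 18S was 1.47 in P and 3.03 in P+eMSC, each the highest of the 54 genes. In sham it was -0.55. In P+eMSC against P at 1 week, the shifts of *Ccr1* and *Mmp9* lay between -1.38 and -1.08. The part of differing leukocyte numbers in the levels of *Cxcl1* and *Cxcl2* was not tested.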

How the data were processed

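Ct values were obtained by the authors with Fluidigm Real-Time PCR analysis software from cDNA preamplified for 14 cycles with the pooled assays. The first deposited table holds 1 Ct, a score on a log2 scale without normalization, per gene and mouse, with 999 or no value where none was called. The second deposited table holds linear fold change ratios against 18S and the sham controls; of 79 ratios of the 2 genes, 77 were within 0.01 (log2) of those calculated from Ct, and the others belonged to mouse 2356. A Ct has no read depth, so the number of mice limits the precision.

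Groups were taken from the labels. Levels were 18S Ct minus gene Ct, and undetected values were left out. All 54 target genes were tested by an exact two-sided Mann-Whitney U test (at least 4 mice per group), called at 0.0513, with Hodges-Lehmann shifts, exact 95% intervals and Benjamini-Hochberg adjustment over the 54 genes. Spread and correlation were tested with 100000 permutations, or exactly within groups, and interactions with limma 3.58.1 (R 4.3.3) at an adjusted p below 0.05. Genes were named as the members, the 3 most similar genes of each and fixed lists. The members, lists and tests were chosen with earlier results of these data known. The exact Mann-Whitney test and the limma interaction of P+eMSC against P were checked on simulated data, and the other tests were not. Alternatives were the panel median, undetected values set 0.01 below the lowest, limma, a permutation of the mean, an adjusted p below 0.05, permutation within animal numbers below 1000 or above 2000, the deposited fold changes, mouse 2356 at 1 week and leaving out each mouse. The exact tests ran in Python 3.11.15 (numpy 2.4.6, pandas 2.3.3) and figures in matplotlib 3.10.9.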

Additional observations from a re-analysis of the deposited data

Results flagged for a closer look

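In the sham controls at 6 weeks, mouse 408 stood apart in *Cxcl2*, where its level of -13.01 was separated from the next mouse (-17.63) by 0.695 of the range of the group (n = 6). The Ct of *Cxcl2* minus that of *Cxcl1* was also lowest in this mouse, at -0.83, with the next at 1.98, a gap of 0.651 of the range. Both gaps passed Dixon's test for an outlying sample, and they share the same *Cxcl2* Ct. In *Cxcl1* the level of this mouse, -13.84, was the highest of the group without such a gap. A total of 18 groups of values were checked, 6 for each of 3 quantities, and chance alone marks about 1 in 20.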

How the results depend on the processing

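Setting mouse 52 below the lowest level brought the fall of *Cxcl1* in P to the threshold (shift -1.81), as did counting mouse 2356 at 1 week (-2.11). With the panel median, *Cxcl1* passed in P+eMSC against P at 1 week (-2.08). Its spread between weeks in sham (6 weeks minus 1 week, -1.17) then had an exact permutation p of 0.0449, but did not pass after adjustment (adjusted p = 0.269). The sign turned with the panel median for *Cxcl1* from 1 to 6 weeks in sham (-0.50) and P+eMSC (-0.52), for *Cxcl1* in P against sham at 6 weeks (0.68), P+eMSC against sham at 1 week (-0.33) and P+eMSC against P at 6 weeks (-1.09), for *Cxcl2* in sham (-0.20) and for the spread of *Cxcl1* between weeks in P+eMSC (0.19). The difference of means, used by limma and by the permutation of the mean, had another sign than the shift for *Cxcl1* in sham (-0.18), P+eMSC against sham at 1 week (-0.77) and at 6 weeks (0.043), and for *Cxcl2* in sham (-0.52). The mean of the Ct difference between the genes fell short of the threshold in P against sham at 1 week (-2.38).

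Leaving out 1 mouse at a time gave *Cxcl1* shifts between -1.81 and -1.24 from 1 to 6 weeks in P and between -0.32 and 0.76 in P+eMSC. They lay between 1.15 and 2.17 in P against sham and between -0.21 and 0.34 in P+eMSC against sham at 1 week, and between -1.89 and -1.31 at 1 week and -0.41 and 1.02 at 6 weeks in P+eMSC against P. *Cxcl2* from 1 to 6 weeks in sham lay between -0.35 and 1.37. The Ct difference of the genes lay between -0.40 and 1.25 from 1 to 6 weeks in sham, and in P against sham between -3.62 and -1.17 at 1 week and -3.14 and -1.61 at 6 weeks. The change in spread between weeks lay between -0.13 and 0.54 (*Cxcl1*) and -0.16 and 1.32 (*Cxcl2*) in P, and between -0.64 and 0.26 and -0.77 and 1.20 in P+eMSC. The cause of these changes was not tested. Of 237 such analyses of the group comparisons, 5 passed the threshold, all in *Cxcl1*.

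The larger spread of *Cxcl2* passed in all 39 analyses that left out a mouse, with the panel median and with the median absolute deviation. Permutation within animal number series moved no comparison of the members across the threshold. Its smallest p was 0.107 (*Cxcl1* from 1 to 6 weeks in P), and it reused the shifts, so direction was not tested. An adjusted p below 0.05 also reused them and is never smaller than the unadjusted p. With no member called, it was not a test. The deposited fold changes are the same levels less a sham mean. They repeated the shifts and p-values from Ct, except a shift of -0.83 in place of -1.13 for *Cxcl2* in P+eMSC against P at 6 weeks. No paired analysis was possible because each mouse received a single treatment and its number is not shared between groups. The eMSC donor of each mouse is not given, so mice could not be matched by donor either.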
